A study of Mus musculus with 6 samples.

Results

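The genes examined here are the subunits of the transcription factor NF-κB and its best-known inhibitors in the mouse hypothalamic arcuate nucleus (ARC). They are 10 of the 21461 genes in the deposited count table and were taken by symbol, with no threshold on their values. *Nfkb1*, *Nfkb2*, *Rela*, *Relb* and *Rel* encode the DNA-binding subunits. *Nfkbia*, *Nfkbib* and *Nfkbie* encode the classical IκB inhibitors, and *Nfkbiz* and *Tnfaip3* encode an atypical nuclear IκB and a ubiquitin-editing enzyme. All 10 symbols were found in the table. The mice were C57BL/6 males aged 10 weeks, and the ARC was taken 24 h after an i.p. injection. They received dexamethasone (Dex, a synthetic agonist of the glucocorticoid receptor, GR; 10 mg/kg) plus Zj7 (50 mg/kg), Dex alone (10 mg/kg), or vehicle. Zj7 is a coumaroylated alphitolic acid, a triterpenoid of the jujube plant. The sample labels give the combined treatment 1 dose, 10 mg/kg, and the doses of the study's methods are used here. The vehicle mice are the only group labelled as fed, and no group received Zj7 alone. Each of the 3 groups had 2 libraries, and the sources do not say whether a library is 1 mouse or a pool. The p-values thus rest on the spread between libraries alone, which may be technical.

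NF-κB subunits pair through their Rel homology domains and are held in the cytoplasm by IκB proteins. Signals from cytokine or Toll-like receptors activate the IκB kinase (IKK) complex, IκB is degraded, and the freed dimers enter the nucleus and switch on genes of inflammation and survival. Several of these target genes encode inhibitors of the pathway itself, so that their transcripts follow its activity. Glucocorticoids restrain NF-κB, through contact of GR with the subunit p65 and, in some cell types, through raised *Nfkbia*. In the brain the pathway is best known from microglia, astrocytes and endothelium, and in the hypothalamus from studies of feeding and inflammation.

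The 250 bases before the transcription start were searched for binding motifs, since several members are themselves known targets of NF-κB. Windows in RefSeq's GRCm38.p6 promoter table were found for 7 of the 10 genes, with 10 start sites in all. *Nfkb1*, *Relb* and *Nfkbiz* had none there. These start sites need not be the outer ends of the gene spans given below. The windows of *Nfkb2* and the second window of *Tnfaip3* lie inside the gene spans, and that of *Rela* runs partly into its span. The outermost start of *Nfkb2* was thus not searched. The NF-κB consensus, a motif of 10 letters searched on both strands, was found in 5 of the 7 genes and in 7 of the 10 windows, while 3.9% of all 32851 windows of that length hold it. The matches are given in capitals with up to 10 flanking bases on each side, 5′ to 3′ on the strand of the gene. Their likeness across members follows from the search, which picked them by the motif. Overlapping matches are merged into a single run.
*Nfkbia*, chr12:55492657-55492686, minus strand: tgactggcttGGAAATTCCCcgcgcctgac
*Nfkbie*, chr17:45555584-45555613, plus strand: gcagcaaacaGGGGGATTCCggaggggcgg
*Tnfaip3*, chr10:19015516-19015545, minus strand: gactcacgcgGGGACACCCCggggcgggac
*Tnfaip3*, chr10:19015411-19015432, minus strand: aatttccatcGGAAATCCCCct
*Rel*, chr11:23771041-23771071, minus strand: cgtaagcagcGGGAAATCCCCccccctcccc
*Nfkb2*, chr19:46304688-46304718, plus strand: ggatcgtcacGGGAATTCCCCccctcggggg
*Nfkb2*, chr19:46304716-46304736, plus strand: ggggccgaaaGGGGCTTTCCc

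*Nfkb2* held a match in each of its 3 windows, and those of its 2 other start sites are not shown. No match was found in the windows of *Nfkbib* and *Rela* or in the second window of *Tnfaip3*. The window of *Nfkbia* is given in full because this gene had the smallest p of the members in Dex against vehicle, with its match in capitals at −29 to −20 from the start. It covers chr12:55492648-55492897 on the minus strand.
*Nfkbia*: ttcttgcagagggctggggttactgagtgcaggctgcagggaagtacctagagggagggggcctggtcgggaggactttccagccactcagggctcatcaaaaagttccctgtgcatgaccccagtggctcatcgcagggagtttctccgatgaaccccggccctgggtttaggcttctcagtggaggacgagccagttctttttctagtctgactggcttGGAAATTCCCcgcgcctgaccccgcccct

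The windows were also searched for a glucocorticoid response element (GRE). The letters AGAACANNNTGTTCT were found in 0 of the 7 genes and in 0.00913% of all windows. Its shorter core, ACANNNTGT, which lies inside that motif and reads the same on both strands, was found in 0 of the 7 genes and in 5.84% of all windows. A match or its lack describes these letters in these windows only.

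Library totals ran between 50704789 and 61122938 counts, and the members had between 79 (*Nfkbie*) and 1537 (*Nfkb1*) counts in a library. All 10 marker genes of arcuate neurons, among them *Agrp*, *Npy* and *Pomc*, were measured in the tissue, with a summed level of 239 and 250 CPM with Dex+Zj7, 296 and 285 CPM with Dex, and 238 and 337 CPM with vehicle. CPM are counts scaled to a common library size after TMM. *Pomc* stood apart in 1 library, with 28.0 and 131 CPM in the vehicle libraries, and without it the vehicle sums were 210.0 and 206 CPM. *Agrp* and *Npy* were called higher and *Ghrh* lower with Dex than with vehicle. Of 17 glucocorticoid-induced genes, 13 were higher with Dex than with vehicle (5.03% of all genes). With Dex+Zj7, 10 were higher than with vehicle (3.4% of all genes). *Tsc22d3*, *Per1* and *Zfp36l2* did not pass with Dex, and *Dusp1* lay lower without passing (log2 fold change −0.30). This list was chosen with earlier results of these data known. The co-chaperone gene *Fkbp5* stood at 125 and 93.9 CPM with Dex+Zj7, 127 and 123 CPM with Dex, and 36.0 and 31.4 CPM with vehicle, and *Cdkn1a*, *Plin4* and *Sult1a1* had log2 fold changes of 3.15, 2.79 and 1.52 in Dex against vehicle. *Plin4* and *Sult1a1* overlap other genes.

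Among the members, the inhibitors *Nfkbia* and *Nfkbib* and the subunits *Rela* and *Nfkb1* were the most abundant. Levels of different genes are compared here per length, as FPKM. *Nfkbia* averaged 12.1 FPKM over the 6 libraries (8.02 to 15.0), *Nfkbib* 9.43 (7.85 to 10.2), *Rela* 7.61 (6.95 to 7.96) and *Nfkb1* 5.60 (5.20 to 5.89). *Relb* followed at 1.24 FPKM (1.08 to 1.39). The other members averaged under 1 FPKM, with *Nfkbiz* at 0.871, *Nfkb2* at 0.734, *Nfkbie* at 0.708, *Rel* at 0.649 and *Tnfaip3* at 0.524. The ranges over libraries did not overlap between *Rela* and *Nfkb1*, between *Nfkb1* and *Relb* or between *Relb* and *Nfkbiz*. All other neighbours in this order overlapped: *Nfkbia* with *Nfkbib* and *Nfkbib* with *Rela* at the top, and each pair of neighbours below *Nfkbiz* at the bottom. *Rela*, the subunit p65, and *Nfkb1*, which encodes p105 and its product p50, were the main subunit transcripts in each library. Deposited TPM values gave the same order for all 10 genes.

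**Figure D1:**
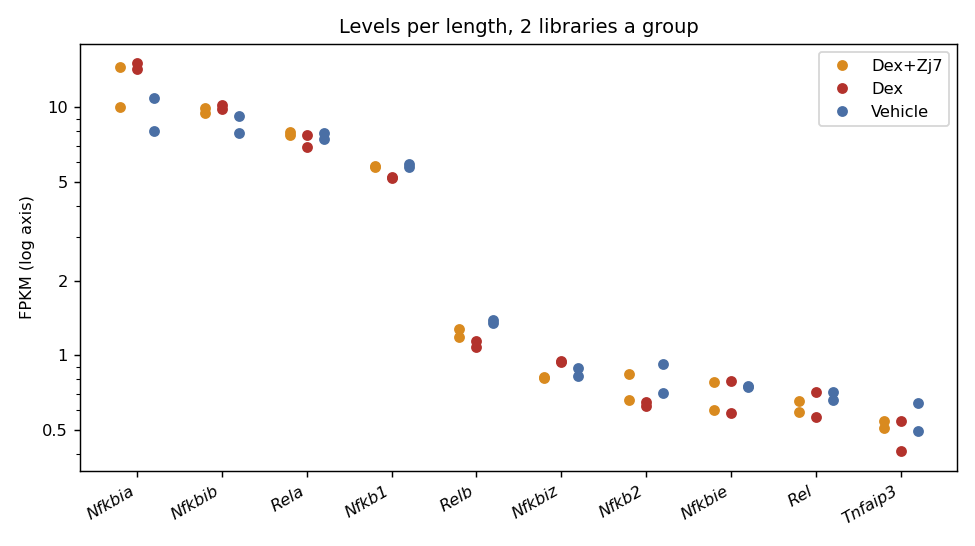
FPKM of the 10 genes on a log axis, in order of their mean over the 6 libraries, with a point for each library and colours for Dex+Zj7, Dex and vehicle. *Nfkbia*, *Nfkbib*, *Rela* and *Nfkb1* lie between 5.20 and 15.0 FPKM and the other 6 genes between 0.410 and 1.39 FPKM.

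To see whether glucocorticoid changes the pathway's own components, Dex was compared with vehicle. In edgeR's quasi-likelihood test 0 of the 10 genes passed the threshold, an adjusted p under 0.05 over all 21461 genes, against 11.5% of all genes. At an unadjusted p under 0.05 there were 2 genes, *Nfkbia* and *Nfkbib*, both with higher values with Dex, where 27.8% of all genes have such a p. DESeq2 called 0 of the 10, while edgeR's exact test and limma-voom each called 1, *Nfkbia*. The median log2 fold change of the 10 genes was −0.09, against 0.00286 over all genes. In 2 members both Dex libraries lay above both vehicle libraries (27.4% of all genes), in 3 both lay below (28.5% of all genes), and in 5 the groups overlapped (55.9% of all genes did not). In bulk tissue, fewer cells of a type and less RNA per cell cannot be told apart.

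*Nfkbia*, the gene of IκBα, which takes NF-κB out of the nucleus and is itself induced by it, had the largest fold change of the 10 in this fit. The gene lies at chr12:55489409-55492647 on the minus strand (GRCm38.p6). It had 25.9 and 24.7 CPM in the Dex libraries, against 18.5 and 13.7 CPM in the vehicle libraries. Both Dex libraries were high and close to each other, and the vehicle libraries lay below them and further apart. The means were 25.3 ± 0.831 CPM with Dex and 16.1 ± 3.37 CPM with vehicle (SD, n = 2 each), a fold of 1.57. On the log2 scale the difference was 0.65 (SE 0.18, 95% interval 0.25 to 1.06). It did not pass, with an adjusted p of 0.0503 by edgeR (unadjusted p = 0.00581).

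The call for *Nfkbia* turned on the choice of test and library. Its adjusted p was 0.0499 with RLE factors, 0.0557 with total counts, 0.0229 over genes with a mean of at least 1 CPM, 0.0282 with only these groups in the fit, 1.90e-04 with edgeR's exact test, 0.0446 with limma-voom and 0.0807 with DESeq2. It passed without Vehicle replicate 1 (0.0488) or without either Dex+Zj7 library (0.0266 and 0.0292), and did not without Vehicle replicate 2 (0.261) or without either Dex library (0.136 and 0.0867). The log2 fold change stayed between 0.46 and 0.89 in all of these fits, all with the Dex value higher.

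*Nfkbib*, the gene of IκBβ, lies at chr7:28758251-28766644 on the minus strand and showed a smaller difference. It had 16.4 and 16.9 CPM with Dex, against 13.2 and 14.8 CPM with vehicle. Both Dex libraries were above both vehicle libraries, with a log2 fold change of 0.25 (95% interval 0.03 to 0.47, adjusted p = 0.133 by edgeR). *Nfkbib* overlaps *Ccer2*, and since the sources used here do not say whether strand was used in counting, reads in a shared stretch may belong to either gene. *Nfkbie*, the gene of IκBε, had 1.56 and 2.09 CPM with Dex and 1.95 and 1.99 CPM with vehicle, where the groups overlapped (log2 fold change −0.11, 95% interval −0.65 to 0.43).

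The 5 subunit genes had log2 fold changes between −0.30 and −0.08 with Dex. *Rela* (chr19:5637442-5648134, plus strand) had 22.0 and 19.6 CPM with Dex, against 21.3 and 22.5 CPM with vehicle, and its groups overlapped. The 95% interval of its log2 fold change ran from −0.27 to 0.11, which is a fold of 0.831 to 1.08. *Nfkb1* (chr3:135584655-135691969, minus strand) had 22.3 and 23.0 CPM with Dex, against 24.4 and 25.8 CPM with vehicle. Both Dex libraries were lower than both vehicle libraries, by a log2 fold change of −0.15 (95% interval −0.31 to 0.02, adjusted p = 0.222 by edgeR).

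*Relb* and *Nfkb2* encode the subunits of the alternative pathway, in which the precursor p100 is processed to p52. *Relb* had 2.76 and 2.64 CPM with Dex, against 3.36 and 3.21 CPM with vehicle. *Nfkb2* had 2.51 and 2.42 CPM with Dex, against 3.41 and 2.64 CPM with vehicle. For both genes the Dex libraries were below the vehicle libraries, with log2 fold changes of −0.28 (95% interval −0.68 to 0.11, adjusted p = 0.334) for *Relb* and −0.30 (95% interval −0.77 to 0.18, adjusted p = 0.402) for *Nfkb2* by edgeR. *Nfkb2* (chr19:46300994-46312400, plus strand) overlaps *Psd*, which had a mean of 9546 counts where *Nfkb2* had at most 197, so its value is uncertain. Its log2 fold change was −0.10 without Vehicle replicate 1 and −0.46 without Vehicle replicate 2. *Rel*, the gene of c-Rel, had 5.82 and 4.64 CPM with Dex and 5.31 and 5.74 CPM with vehicle, where the vehicle libraries lay between the Dex libraries.

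*Tnfaip3*, the gene of A20, which edits ubiquitin chains upstream of IKK, had 1.99 and 2.68 CPM with Dex, against 3.06 and 2.38 CPM with vehicle. *Nfkbiz*, the gene of IκBζ, which acts on bound NF-κB in the nucleus, had 5.05 and 4.28 CPM with Dex, against 4.91 and 4.15 CPM with vehicle. In both genes the groups overlapped, with log2 fold changes of −0.22 (95% interval −0.73 to 0.29) and 0.04 (−0.34 to 0.42). Both intervals include differences in either direction. The value of *Tnfaip3* ran from −0.45 without Dex replicate 2 to −0.026 without Dex replicate 1, and was also −0.026 without Vehicle replicate 1.

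**Figure D2:**
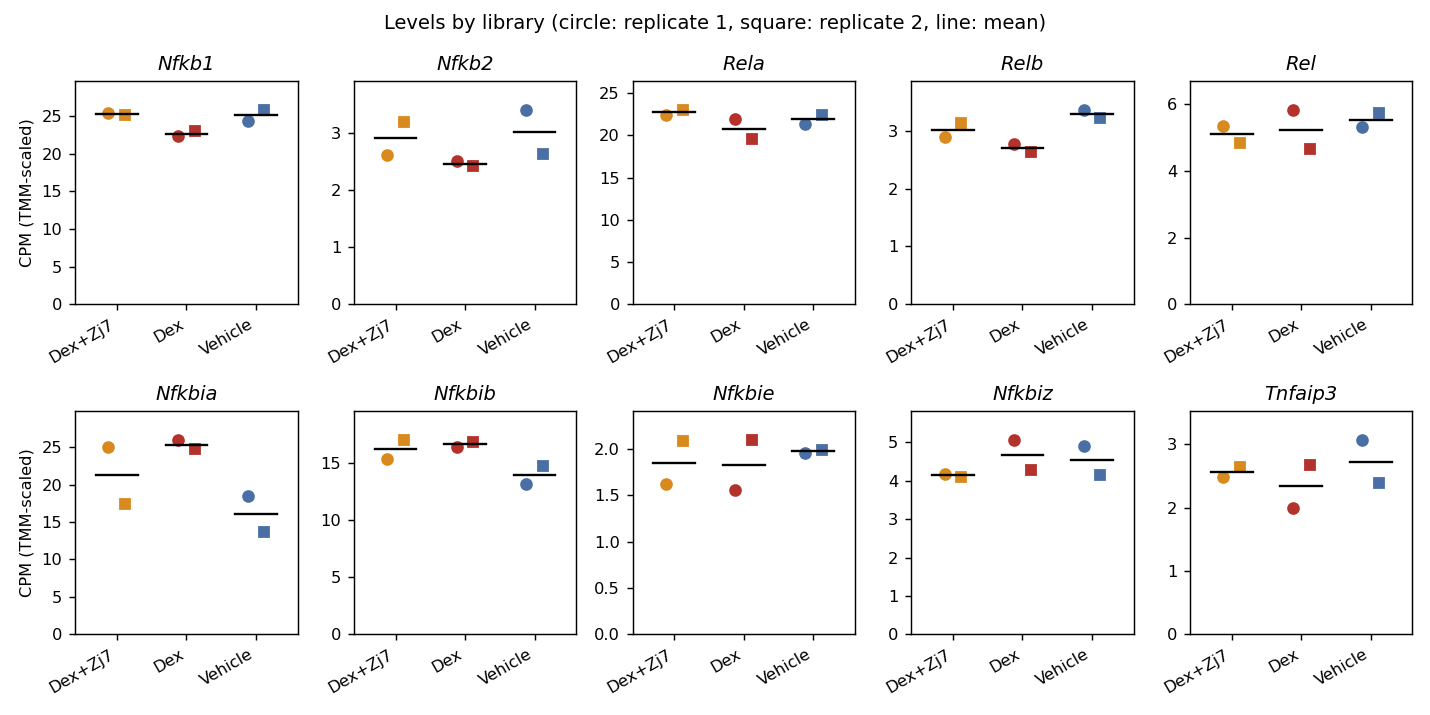
CPM of each gene by library, with Dex+Zj7, Dex and vehicle from left to right, circles for replicate 1, squares for replicate 2, lines for the mean and axes from 0. The Dex+Zj7 libraries of *Nfkbia* are split at 25.0 and 17.4 CPM, while both Dex libraries (25.9 and 24.7 CPM) stand above the vehicle libraries (18.5 and 13.7 CPM).

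With Zj7 added to Dex, the comparison asks whether Zj7 changes what Dex does to these genes. By edgeR 0 of the 10 genes passed in Dex+Zj7 against Dex, where 0.00466% of all genes did, which is 1 gene. At an unadjusted p under 0.05 there were 0 of the 10 (5.24% of all genes, 3.12% in the higher direction), and DESeq2, edgeR's exact test and limma-voom each called 0 of the 10. The adjusted p by edgeR was at least 0.969, and the log2 fold changes ran from −0.25 to 0.24 with a median of 0.07 (0.00212 over all genes). Both Dex+Zj7 libraries lay above both Dex libraries in 4 members (16.4% of all genes), below them in 1 (14.9% of all genes), and overlapped with them in 5 (31.3% of all genes did not overlap).

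*Nfkbia* had 25.0 and 17.4 CPM with Dex+Zj7, against 25.9 and 24.7 CPM with Dex. The first Dex+Zj7 library stood at the level of the Dex libraries and the second within the range of the vehicle libraries. In the same second Dex+Zj7 library *Cdkn1a* (50.1 CPM, against 82.9 CPM in the first), *Plin4* (82.5 and 126 CPM) and *Fkbp5* (93.9 and 125 CPM) were also lower than in the first. So were 14 of the 17 glucocorticoid-induced genes in all, against 50.3% of all genes, while *Mt1*, *Per1* and *Zfp36l2* were higher. The log2 fold change of *Nfkbia* was −0.25 (SE 0.18, 95% interval −0.66 to 0.15), and it was −0.03 without Dex+Zj7 replicate 2 and −0.54 without Dex+Zj7 replicate 1. The 4 genes with both Dex+Zj7 libraries above Dex were the subunits *Nfkb1*, *Rela*, *Relb* and *Nfkb2*. *Nfkb1* had 25.3 and 25.2 CPM with Dex+Zj7, against 22.3 and 23.0 CPM with Dex, and *Rela* had 22.5 and 23.0 CPM, against 22.0 and 19.6 CPM. Their log2 fold changes were 0.16 (95% interval −0.01 to 0.32) and 0.13 (−0.06 to 0.32), and neither passed. *Relb* had 2.89 and 3.13 CPM with Dex+Zj7, against 2.76 and 2.64 CPM with Dex, and *Nfkb2* had 2.63 and 3.20 CPM, against 2.51 and 2.42 CPM. Both were among the members of low count, with 95% intervals of −0.24 to 0.55 and −0.23 to 0.72 on the log2 scale.

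The other members gave no such separation, apart from 1. *Nfkbiz* had 4.18 and 4.1 CPM with Dex+Zj7 and 5.05 and 4.28 CPM with Dex, and was the member with both Dex+Zj7 libraries below Dex (log2 fold change −0.17, 95% interval −0.55 to 0.20). The groups overlapped in *Nfkbib* (15.4 and 17.0 CPM with Dex+Zj7, 16.4 and 16.9 CPM with Dex), in *Rel* (5.36 and 4.84 CPM, against 5.82 and 4.64 CPM), in *Nfkbie* (1.62 and 2.08 CPM, against 1.56 and 2.09 CPM) and in *Tnfaip3* (2.49 and 2.64 CPM, against 1.99 and 2.68 CPM).

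Dex+Zj7 was also set against vehicle. By edgeR 0 of the 10 genes passed (7.38% of all genes did), 0 had an unadjusted p under 0.05 (25.1% of all genes), and DESeq2, edgeR's exact test and limma-voom each called 0 of the 10. The libraries of the groups overlapped in 8 members (58.1% of all genes did not overlap). *Nfkbia* had 25.0 and 17.4 CPM with Dex+Zj7 and 18.5 and 13.7 CPM with vehicle, so that the groups overlapped (log2 fold change 0.40, 95% interval −0.01 to 0.81, adjusted p = 0.209 by edgeR). That value was 0.12 with the first Dex+Zj7 library left out and 0.63 with the second left out, and 0.62 and 0.20 with the first or the second vehicle library left out. It passed in none of these 4 fits. *Nfkbib*, with 15.4 and 17.0 CPM against 13.2 and 14.8 CPM with vehicle, was the 1 member with both libraries higher (29.4% of all genes). Its log2 fold change was 0.21 (95% interval −0.01 to 0.43, adjusted p = 0.217 by edgeR). *Relb*, with 2.89 and 3.13 CPM against 3.36 and 3.21 CPM with vehicle, was the 1 member with both lower (28.7% of all genes). *Nfkb1* differed by 0.01 on the log2 scale and *Rela* by 0.05, with 95% intervals of −0.15 to 0.17 and −0.14 to 0.24. The Dex and the vehicle libraries each enter 2 of the comparisons, so that these share samples.

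**Figure D3:**
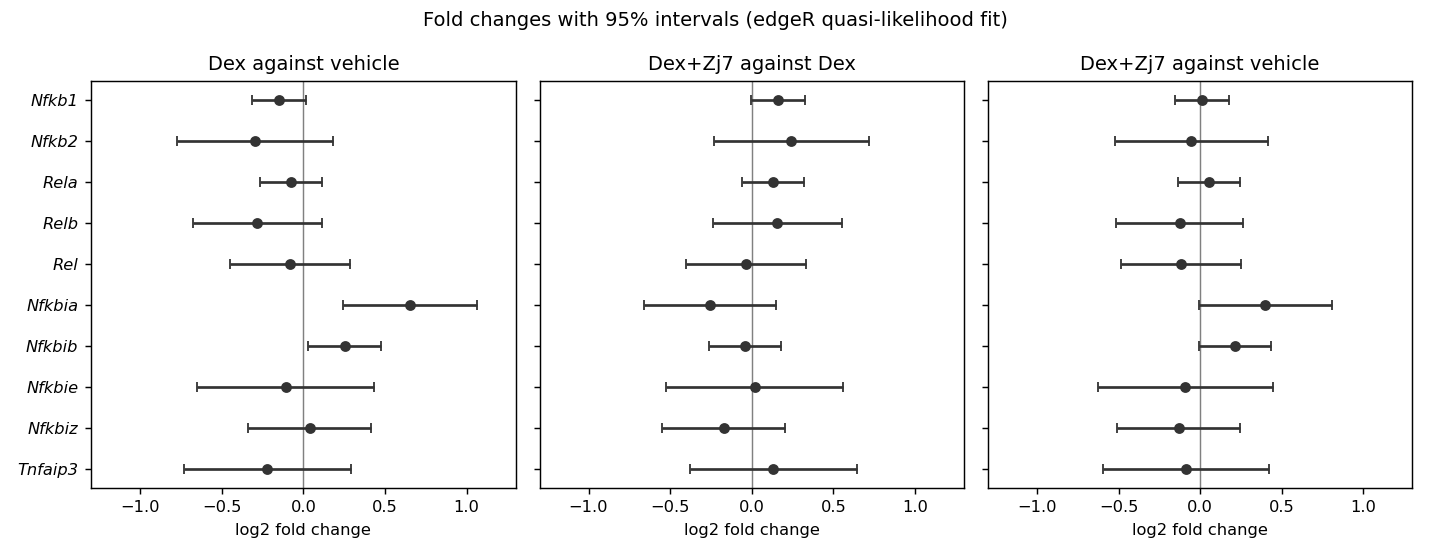
Log2 fold change of each gene with its 95% interval in Dex against vehicle, Dex+Zj7 against Dex and Dex+Zj7 against vehicle, from the quasi-likelihood fit. The intervals of *Nfkbia* (0.25 to 1.06) and *Nfkbib* (0.03 to 0.47) in Dex against vehicle lie above 0, and all others include 0.

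The balance of inhibitor to subunit transcripts was followed within each library, as the summed FPKM of *Nfkbia*, *Nfkbib* and *Nfkbie* over that of the 5 subunits. It was 1.53 and 1.27 with Dex+Zj7, 1.65 and 1.75 with Dex, and 1.20 and 1.09 with vehicle. The Dex libraries were highest and the vehicle libraries lowest, with no overlap among the 3 groups. For single genes by CPM, 55.9% of all genes did not overlap in Dex against vehicle. The share was 31.3% in Dex+Zj7 against Dex and 58.1% in Dex+Zj7 against vehicle. No such share was computed for a ratio of sums or for an order of 3 groups. *Nfkbia* alone made up 58.9% and 48.5% of the summed inhibitor level with Dex+Zj7, 59.1% and 56.5% with Dex, and 55.8% and 44.5% with vehicle. The summed subunit level was 16.0 and 16.4 FPKM with Dex+Zj7, 15.4 and 14.4 FPKM with Dex, and 16.2 and 16.5 FPKM with vehicle. The ratio carries no test.

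The genes whose pattern over the 6 libraries was most like that of *Nfkbia* were *Zfp711* (Pearson r = 0.997 of log2 CPM), *F3* (0.996), *Limch1* (0.995), *Clip1* (0.995) and *Lifr* (0.989). They were ranked among 10599 genes with a mean of at least 10 CPM, of which 365 had an r above 0.9, and the 6 libraries share the 3 treatments. *F3*, which encodes tissue factor, had 80.2 and 59.2 CPM with Dex+Zj7, 86.3 and 83.1 CPM with Dex, and 60.6 and 48.1 CPM with vehicle. As with *Nfkbia*, the second Dex+Zj7 library and the second vehicle library were the lower ones of their groups. *F3* passed in Dex against vehicle (log2 fold change 0.64, adjusted p = 0.0263 by edgeR), where 11.5% of all genes did, and the other 4 genes did not. These genes were picked for likeness to *Nfkbia* over the same libraries, so their differences are no separate test.

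Genes that carry signals to NF-κB, or act beside these inhibitors, were examined as lists. In Dex against vehicle 11.5% of all genes passed, counting either direction. Of 13 genes of the IKK complex and its upstream kinases, 0 were higher and 1 was lower with Dex than with vehicle, where 5.03% of all genes were higher and 6.45% lower. The list had a median log2 fold change of −0.03, beside 0.00286 for all genes. The lower gene was *Ikbkb*, the kinase IKKβ that marks IκB for degradation, with 33.5 and 33.6 CPM with Dex, against 43.1 and 40.6 CPM with vehicle (log2 fold change −0.32, adjusted p = 0.0188 by edgeR). Both Dex libraries were lower and nearly equal. With Dex+Zj7 *Ikbkb* had 37.3 and 36.9 CPM, which lay between the other groups and did not pass against either (adjusted p = 0.139 against vehicle and 0.967 against Dex).

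With Dex, 5.03% of all genes were higher than with vehicle and 6.45% lower. Of 13 measured receptors of ligands that activate NF-κB, 0 were higher and 1 was lower (median −0.14). It was *Cd14*, a co-receptor for lipopolysaccharide on myeloid cells, with 0.869 and 0.728 CPM with Dex, against 1.80 and 1.72 CPM with vehicle (log2 fold change −1.14). Of 23 adaptors and ubiquitin ligases, 0 were higher and 1 was lower (median −0.04). It was *Traf1*, an adaptor that is itself induced by NF-κB, with 2.37 and 1.97 CPM with Dex, against 3.60 and 4.34 CPM with vehicle (log2 fold change −0.87). *Traf1* was lower than vehicle also with Dex+Zj7, at 2.28 and 2.15 CPM (log2 fold change −0.84, adjusted p = 0.0396 by edgeR), and was the 1 gene of these 3 lists to pass there in either direction (3.4% of all genes higher, 3.97% lower).

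Of 19 other inhibitors and deubiquitinases, 4 were higher and 0 lower with Dex, where 5.03% of all genes were higher and 6.45% lower. Their median log2 fold change was 0.000587, against 0.00286 over all genes. *Otulin*, a deubiquitinase of linear ubiquitin chains, had 12.7 and 11.7 CPM with Dex, against 7.84 and 9.14 CPM with vehicle (log2 fold change 0.53). *Otud7b*, a deubiquitinase that acts on TRAF3 in the alternative pathway, had 93.1 and 85.0 CPM with Dex, against 69.0 and 70.2 CPM with vehicle (0.36). *Nfkbil1*, an IκB-like gene that overlaps *Atp6v1g2*, had 10.5 and 10.5 CPM with Dex, against 7.80 and 7.20 CPM with vehicle (0.48). The fourth was *Tnip2*, an A20-binding protein gene (0.34). In each of these genes both Dex libraries were above both vehicle libraries. With Dex+Zj7, 1 was higher than vehicle and 1 was lower, where 3.4% of all genes were higher and 3.97% lower. The higher gene was *Otud7b* (0.26, adjusted p = 0.0494 by edgeR, lost with total counts at 0.0720 and with limma-voom at 0.0514). The lower gene was *Commd1* (−0.41), which promotes ubiquitination of p65 and overlaps *Zrsr1*.

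Of 28 listed target genes of NF-κB, 19 were measured. *Ccl2*, *Ccl5*, *Cxcl1*, *Cxcl10*, *Il1b*, *Il6*, *Tnf*, *Sele* and *Bcl2a1d* were not analysed here, and the authors left out genes at 0 in any library. With Dex, 1 of the 19 was higher and 4 were lower than with vehicle, where 5.03% of all genes were higher and 6.45% lower. The median log2 fold change of the list was −0.33, against 0.00286 over all genes. *Lcn2*, the gene of lipocalin-2, had 1.20 and 0.728 CPM with Dex, against 4.90 and 2.92 CPM with vehicle (log2 fold change −2.02). *Vcam1*, a vascular adhesion molecule, had 22.0 and 19.7 CPM with Dex, against 33.6 and 27.9 CPM with vehicle (−0.56), and *Cx3cl1*, the gene of the neuronal chemokine fractalkine, had 209 and 232 CPM, against 276 and 297 CPM (−0.38). *Nos2*, the inducible nitric oxide synthase, was the fourth (−1.78), at under 1 CPM in all libraries. *Bcl2l1*, which encodes the survival protein BCL-XL and overlaps *Cox4i2*, went the other way, with 120 and 126 CPM with Dex, against 90.7 and 90.8 CPM with vehicle (0.44). With Dex+Zj7, 1 was higher (*Bcl2l1*, 0.32) and 2 were lower than vehicle (*Lcn2*, −2.01, and *Vcam1*, −0.58), and the median was −0.26. Of all genes, 3.4% were higher and 3.97% lower there. Against Dex, 0 genes of these 5 lists passed with Dex+Zj7.

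The calls of *Tnip2* and *Nos2* were not followed in the fits with a library left out. Those of *Ikbkb*, *Cd14*, *Traf1*, *Otulin*, *Otud7b*, *Nfkbil1*, *Lcn2*, *Vcam1*, *Cx3cl1* and *Bcl2l1* in Dex against vehicle were followed. Each of these was lost without at least 1 of the vehicle libraries. The adjusted p by edgeR then lay between 0.0573 (*Bcl2l1*) and 0.198 (*Nfkbil1*). Those of *Traf1*, *Otulin*, *Cd14* and *Nfkbil1* were also lost without at least 1 Dex library, at 0.0849 for *Traf1*, 0.0830 for *Otulin*, 0.0502 to 0.0705 for *Cd14* and 0.0701 to 0.0837 for *Nfkbil1*. In Dex+Zj7 against vehicle, *Traf1*, *Otud7b*, *Commd1* and *Bcl2l1* lost their call without any 1 of the 4 libraries compared (adjusted p of 0.0504 to 0.243), *Vcam1* without either Dex+Zj7 library or Vehicle replicate 1 (0.0837 to 0.0978) and *Lcn2* without Dex+Zj7 replicate 1 or Vehicle replicate 1 (0.113 and 0.0813).

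**Figure D4:**
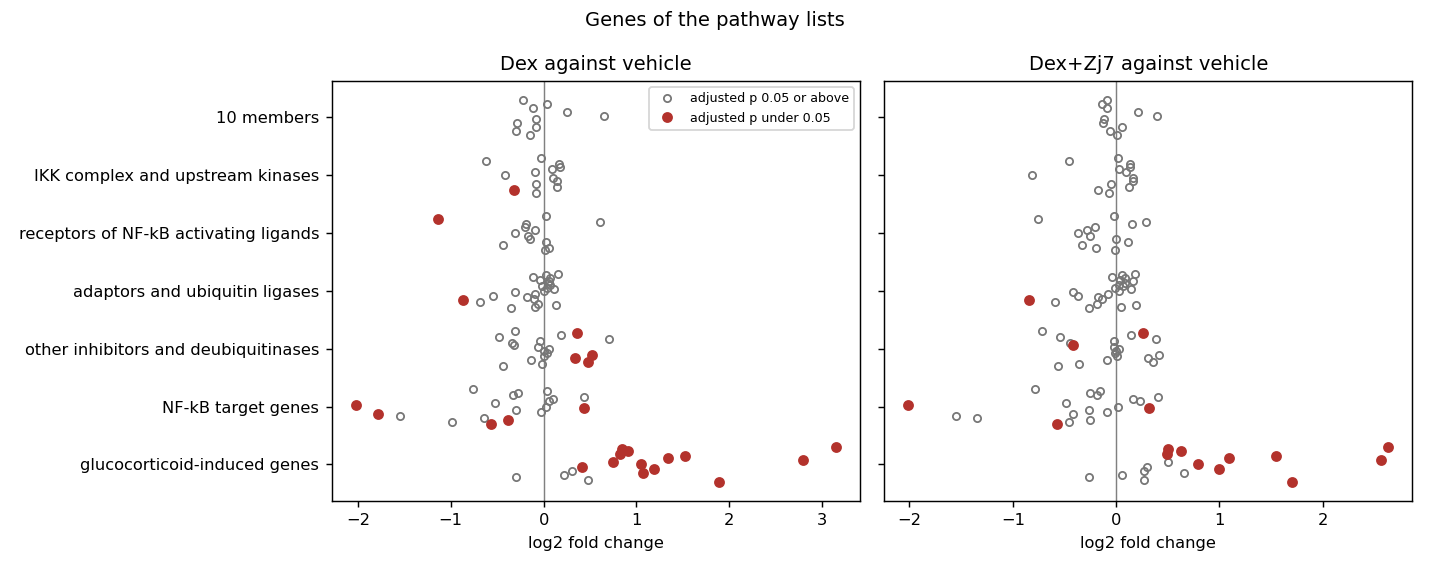
Log2 fold changes in Dex against vehicle and Dex+Zj7 against vehicle for the 10 genes and for 6 lists of related genes, 1 point a gene, filled where the adjusted p was under 0.05. None of the 10 members is filled, 13 of 17 glucocorticoid-induced genes are filled on the right for Dex, and *Lcn2* is the filled target gene furthest left (−2.02).

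Markers of other cell types moved with the treatments. Of 9 microglia genes, 7 had a call below vehicle with Dex, where 6.45% of all genes did, and all 9 log2 fold changes were negative. Their summed level was 149 and 141 CPM with Dex+Zj7, 155 and 154 CPM with Dex, and 261 and 258 CPM with vehicle. Of 9 endothelial genes, 8 were lower with Dex, and the sum was 150 and 189 CPM with Dex+Zj7, 103 and 87.3 CPM with Dex, and 199 and 205 CPM with vehicle. Of 8 mural cell genes, 6 were lower (117 and 126 CPM with Dex+Zj7, 97.7 and 95 CPM with Dex, 184 and 176 CPM with vehicle), as were 5 of 7 meningeal fibroblast genes and 7 of 8 oligodendrocyte genes. With Dex+Zj7, 3.97% of all genes had a call below vehicle. Such calls numbered 8 of 9 in microglia, 2 of 9 in endothelium and 4 of 8 in mural cells. They numbered 7 of 7 in meningeal fibroblasts and 7 of 8 in oligodendrocytes. The fibroblast sum was 36.3 and 33.6 CPM with Dex+Zj7, 80.0 and 35.0 CPM with Dex, and 190 and 101 CPM with vehicle. Astrocyte genes summed to between 3663 and 3922 CPM in all libraries, and 2 of 8 were lower in either treatment. Of the 4 lymphocyte genes measured of 8, 2 were lower in either treatment, and the sum was at most 9.78 CPM. Of 8 pan-neuronal genes, 0 passed with Dex by edgeR's quasi-likelihood test. In the Dex libraries *Nfkbia* and *Nfkbib* were high, and the microglial and endothelial sums, *Cd14* and *Vcam1* were low. With Dex+Zj7 the endothelial sum lay above that with Dex, while *Vcam1* had 21.3 and 20.0 CPM, beside 22.0 and 19.7 CPM with Dex. The part of cell numbers in the values of the members and of these genes was not tested.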

How the data were processed

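Stranded poly(A) libraries of ARC tissue, 2 in each of 3 groups, were sequenced on an Illumina platform. The authors cleaned the reads and used Bowtie2 (2.3.4.1), HISAT2 (2.1.0) and the genome mm10 for mapping. StringTie (2.1.3b) served for assembly, and genes at 0 in any library were left out. All tests used the deposited read counts, which are whole and not normalized. The deposited FPKM values gave levels per length, and the deposited TPM values an alternative order. The deposited log2 columns and the authors' own fold changes and p-values were not used.

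Counts of all 21461 genes were scaled by TMM and tested with edgeR 4.0.16 (glmQLFit, glmQLFTest; R 4.3.3) by group over the 6 libraries, without covariates. Benjamini-Hochberg adjustment ran over the whole table, with calls under 0.05. SEs are the log2 fold change over the square root of F, and 95% intervals use the test's degrees of freedom. The procedure was tested on counts simulated from each gene's mean CPM over the 6 libraries and its fitted dispersion. Changes were set in 200 genes of at least 1 CPM. The procedure recovered 61.2% of changes of 1.5-fold, 89.6% of 2-fold and 100% of 4-fold, with 13 false calls. The data hold 2464 calls in Dex against vehicle, so these rates may differ there. Totals of 50704789 to 61122938 counts were found per library. Alternatives were RLE factors, total counts, a filter at a mean of 1 CPM, DESeq2 1.42.0, edgeR's exact test, limma-voom (limma 3.58.1), a fit of only the groups compared, a replicate block, and leaving out each library.

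The members and lists were chosen with earlier results of these data known. All 10 members are named. From each list up to 3 genes of smallest p in each direction were named among those that passed against vehicle (*Tnip2* and *Nos2* were added after their values were seen), together with the 5 genes most correlated with the member of smallest p. *Agrp*, *Npy* and *Pomc* and the markers were named as part of the tissue check. Positions and overlaps come from RefSeq's GRCm38.p6, the assembly behind mm10.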

Additional observations from a re-analysis of the deposited data

How the results depend on the processing

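The members called in Dex+Zj7 against Dex and in Dex+Zj7 against vehicle numbered 0 under all alternatives run. The count of members called in Dex against vehicle was 0, and 1 (*Nfkbia*) with RLE factors, a mean of at least 1 CPM, edgeR's exact test, limma-voom, only the groups compared or the replicate block, and 0 to 1 with a library left out. Of all genes, 2464 were called in Dex against vehicle, 538 to 2397 with a library left out (lowest without Vehicle replicate 2, 804 without Vehicle replicate 1 and 1514 without Dex replicate 1). Dex+Zj7 against Dex had 1 call, 66 with DESeq2, 100 with edgeR's exact test, 0 with only the groups compared or the replicate block, and 0 to 3 with a library left out. Dex+Zj7 against vehicle had 1583, 3875 with edgeR's exact test, 2612 with the replicate block, and 311 to 2330 with a library left out (311 and 484 without Dex+Zj7 replicates 1 and 2, 383 and 354 without Vehicle replicates 1 and 2). The cause was not tested.

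The labels number the replicates but do not say that a number marks a shared mouse or day. The differences between replicates 1 and 2 correlated at 0.32 between Dex and vehicle, −0.01 between Dex and Dex+Zj7 and 0.02 between Dex+Zj7 and vehicle, so that the first pair of groups deviated together and the others did not. The numbers were not taken as pairs in the main fit, since the labels do not mark them so. For Dex and vehicle, which deviated together, the data do not settle this choice. With the replicate block, *Nfkbia* had an adjusted p of 0.00714 in Dex against vehicle by edgeR (log2 fold change 0.67), and no other call of a member changed.

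Some small log2 fold changes turned sign. *Nfkb1* in Dex+Zj7 against vehicle was −0.020 with total counts and −0.039 to 0.045 with a library left out. With a library left out, in Dex against vehicle *Rela* ran from −0.16 to 0.0024, *Rel* from −0.25 to 0.076, *Nfkbie* from −0.34 to 0.085 and *Nfkbiz* from −0.084 to 0.17. In Dex+Zj7 against Dex *Rel* ran from −0.19 to 0.13, *Nfkbib* from −0.12 to 0.029, *Nfkbie* from −0.19 to 0.25 and *Tnfaip3* from −0.061 to 0.36. In Dex+Zj7 against vehicle *Nfkb2* ran from −0.23 to 0.13, *Nfkbie* from −0.29 to 0.077 and *Tnfaip3* from −0.26 to 0.10. The cause was not tested.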
